A study of Mus musculus with 4 samples.

Results

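A set of 10 genes with Tudor domains and a link to the germline were examined in lactate-treated mouse embryonic stem cells (ESCs), 10 of the 55335 genes in the deposited gene table. They were taken by gene symbol, as Tdrd1, Tdrd3, Tdrd5, Tdrd6, Tdrd7, Tdrd9, Tdrd12, Tdrkh, Stk31 and Rnf17. Of these, 7 are known chiefly from germ cells and are called germline-limited here (Tdrd1, Tdrd5, Tdrd6, Tdrd9, Tdrd12, Stk31 and Rnf17), and 3 are also transcribed in many other tissues and are called broadly expressed (Tdrd3, Tdrd7 and Tdrkh). RNA-seq had been performed on the mouse ESC line AB2.2, with 2 control libraries and 2 libraries of cells given 50 mM lactate for 24 h. No altered allele is named in the labels for either group. Both groups grew on mouse embryonic fibroblast feeder cells in serum medium with leukemia inhibitory factor, the GSK3 inhibitor CHIR99021 and the MEK inhibitor PD0325901, so feeder RNA may be present in every library. AB2.2 is 1 cell line, and the labels do not say whether the 2 libraries of a group came from separate cultures, so that p-values measure only the spread between these libraries, which may be technical.

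Tudor domains are folds that bind methylated arginine or lysine residues. In germ cells, Tudor proteins dock onto methylated arginines of the PIWI proteins and hold them in granules beside mitochondria, where PIWI-interacting RNAs (piRNAs) are made and retrotransposon transcripts are cut. Many genes of this pathway are kept silent outside the germline by promoter DNA methylation and by a Polycomb complex that contains MGA, MAX and E2F6, in which MGA and MAX recognise the E-box CACGTG.

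The promoter sequences are shown first, because the E-box is one feature by which the members differed. RefSeq windows of 300 bases on GRCm38.p6, from 250 bases before to 50 after an annotated start, were found for 8 of the 10 members. Rnf17 and Tdrd6 had no window in the table. Windows are printed 5′ to 3′ on the strand of the gene, in lower case, with every CACGTG in capitals. The Tdrd9 window (chr12:111971309-111971608, plus strand) held 2 E-boxes, and Tdrd9 is the member with the call below. The Tdrd1 (chr19:56826025-56826324, plus strand) and Stk31 (chr6:49395354-49395653, plus strand) windows held 1 each. Tdrd12 (chr7:35537666-35537965, minus strand) is shown as a germline-limited member without the motif, and Tdrd3 (chr14:87416333-87416632, plus strand) as a broadly expressed one.
Tdrd9: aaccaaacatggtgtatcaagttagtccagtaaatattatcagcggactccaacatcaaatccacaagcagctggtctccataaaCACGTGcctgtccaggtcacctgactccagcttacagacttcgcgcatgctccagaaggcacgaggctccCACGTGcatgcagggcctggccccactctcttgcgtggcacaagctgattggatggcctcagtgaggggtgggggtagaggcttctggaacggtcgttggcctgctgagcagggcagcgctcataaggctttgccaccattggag
Tdrd1: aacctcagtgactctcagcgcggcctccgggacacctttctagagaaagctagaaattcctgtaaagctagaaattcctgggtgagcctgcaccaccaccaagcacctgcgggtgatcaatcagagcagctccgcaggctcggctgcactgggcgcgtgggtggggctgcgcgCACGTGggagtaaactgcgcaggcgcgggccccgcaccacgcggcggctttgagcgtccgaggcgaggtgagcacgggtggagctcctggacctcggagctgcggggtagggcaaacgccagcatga
Stk31: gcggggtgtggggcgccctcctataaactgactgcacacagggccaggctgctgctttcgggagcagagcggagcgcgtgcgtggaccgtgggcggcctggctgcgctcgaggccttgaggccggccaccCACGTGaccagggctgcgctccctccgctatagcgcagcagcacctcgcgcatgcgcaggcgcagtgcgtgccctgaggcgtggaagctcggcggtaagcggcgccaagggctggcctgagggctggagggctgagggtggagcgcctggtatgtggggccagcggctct
Tdrd12: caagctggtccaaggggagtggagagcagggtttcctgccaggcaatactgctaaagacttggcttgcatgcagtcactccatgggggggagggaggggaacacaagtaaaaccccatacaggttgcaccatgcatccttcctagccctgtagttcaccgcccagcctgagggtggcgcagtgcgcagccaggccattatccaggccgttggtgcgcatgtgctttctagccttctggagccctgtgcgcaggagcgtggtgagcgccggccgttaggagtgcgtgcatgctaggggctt
Tdrd3: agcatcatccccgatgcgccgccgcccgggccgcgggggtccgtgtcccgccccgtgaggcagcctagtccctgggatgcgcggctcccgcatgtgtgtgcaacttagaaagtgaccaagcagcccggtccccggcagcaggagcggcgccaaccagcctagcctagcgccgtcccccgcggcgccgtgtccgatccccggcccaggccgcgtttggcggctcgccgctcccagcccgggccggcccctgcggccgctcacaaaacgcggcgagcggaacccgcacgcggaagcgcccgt

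In Tdrd9 the E-boxes began 165 and 95 bases before the start. The E-box of Tdrd1 began 77 bases before the start of the window shown, or 11 bases before another annotated start. That of Stk31 began 120 bases before the start shown, or 55 before another. Among the members with a window, 3 of 5 germline-limited and 0 of 3 broadly expressed genes held CACGTG, which reads the same on both strands. Counted per gene in the same way, with any window of a gene taken, 11.3% of the 12053 tested genes with a window held it, and counted per window 7.15% of all 32851 windows of this length. An E2F6-type motif, GCGGGAA or TTCCCGC on the printed strand, occurred only in Tdrd5, and in 9.43% of the tested genes with a window (4.60% of all windows). In Tdrd5 it began 250 bases before the RefSeq start at chr1:156303348 (minus strand). Another annotated start, at 156303664, lies upstream of the motif, so the motif is downstream of that start. The 2 motifs did not occur together in any member's window. The windows also differed in CpG content, each gene taken by its window with the most CpG. Tdrd9 held 10 CpG dinucleotides, Tdrd12 11, Tdrd1 and Tdrkh 25, Stk31 29 (28 in the window shown), Tdrd7 32, Tdrd3 43 and Tdrd5 48. The median was 21 over the tested genes, counted in the same way, and 7 over all windows. Tdrd9 and Tdrd12 thus lay below the median of the tested genes, and the other members with a window above it. A match describes letters, and binding was not measured. Over the tested genes with a window, the 1360 with an E-box had a median log2 fold change of −0.01 and the 10693 without one a median of 0.01, while 13 of the former (0.956%) and 59 of the latter (0.552%) were called as higher with lactate by the edgeR test described below. Of the 1137 with an E2F6-type motif 0 were called as higher, as were 0 of the 138 with both motifs. Among all 12053 the number was 72 (0.597%).

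The members spanned a wide range of RNA levels in control ESCs. Levels are given in FPKM, fragment counts divided by transcript length and library depth, which allows genes to be compared. Rnf17, which encodes a RING finger and Tudor protein of male germ cell granules, was highest at 47.1 FPKM ± 2.45 (SD, n = 2), followed by Tdrd12, a helicase-like piRNA factor, at 28.8 ± 1.07. Both lie far up the range of the 23765 genes detected in control cells, at percentiles 89.9 and 83.9. The name germline-limited thus does not hold for these 2 genes in this cell line. Stk31, at percentile 57.7, also lay above Tdrkh (51.9) and Tdrd7 (50.8) of the broadly expressed set. The name is used below only for the set as fixed by name.

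Tdrd3, Stk31, Tdrkh and Tdrd7 followed in control cells, at 5.65, 4.40, 2.44 and 2.17 FPKM. The ranges of Tdrkh and Tdrd7 overlapped, and the other neighbours in this order did not. Tdrd9 stood at 0.705 FPKM and Tdrd5 at 0.385, while Tdrd1 (0.065) and Tdrd6 (0.010) were close to 0. With lactate the order changed in its middle, where Stk31 (7.81 FPKM) stood above Tdrd3 (6.03) and Tdrd9 (1.57) above Tdrd7 (1.33). The ranges of Tdrd9 and Tdrd7 overlapped in the lactate libraries, as did those of Tdrd7 and Tdrd5.

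**Figure D1:**
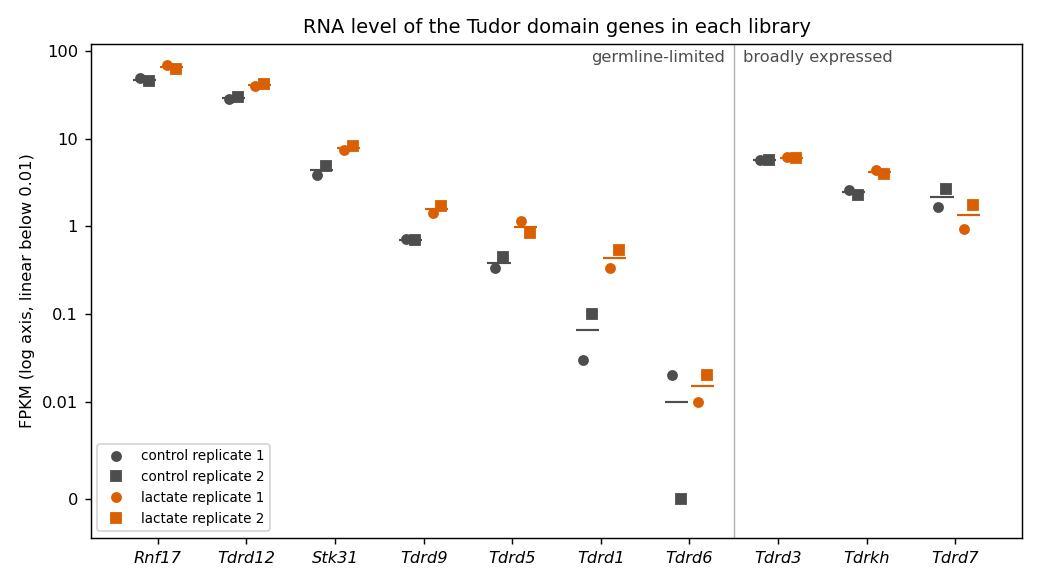
RNA level of each gene in FPKM on a log axis that is linear below 0.01, with 1 point per library, control and lactate side by side, and lines at the group means. Rnf17 and Tdrd12 lie above 28 FPKM in every library, while Tdrd6 stays at or below 0.02.

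To ask whether lactate changed these genes, the raw read counts were compared between the groups with edgeR's quasi-likelihood test over 18661 genes, with Benjamini-Hochberg adjustment. A gene was called when its adjusted p was under 0.05 and its change over 2-fold, the thresholds the study applied. Tdrd9 was upregulated 2.46-fold with lactate and was the only member called. The other 5 germline-limited genes that could be tested had higher values in both lactate libraries than in either control library, but none was called. Such separation is common here. In CPM, 27.0% of all genes tested lay higher in both lactate libraries than in both control libraries, and 25.9% lay lower. The broadly expressed genes had 0 calls by edgeR and by DESeq2, and 1 of the 3, Tdrkh, had an unadjusted p under 0.05. Over all genes tested, 0.900% were called, 0.552% as higher with lactate and 0.348% as lower. Higher genes made up 61.3% of all calls, and 73.0% when libraries were scaled by their totals alone.

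Tdrd9 encodes an RNA helicase that works with the PIWI protein PIWIL4 in fetal male germ cells (GRCm38 chr12:111971559-112068854, plus strand). The control libraries held 67 and 66 reads and the lactate libraries 166 and 181. As CPM, counts scaled to library totals with TMM factors, these were 3.87 and 3.48 in control and 8.93 and 9.18 with lactate. Both lactate libraries were thus above both control libraries by far more than the gap within a group. The log2 fold change was 1.30 (SE 0.20, 95% interval 0.82 to 1.78, edgeR adjusted p = 0.0494). This call lies at the threshold, and it was lost without control replicate 1 (adjusted p = 0.101), without control replicate 2 (0.0654) and with a minimum of 10 reads in every library (0.0509). DESeq2 gave an adjusted p of 0.00676 and called 2 members, Tdrd9 and Tdrd1, where it called 1.12% of its tested genes as higher.

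Tdrd12, a Tudor protein with a helicase-like domain needed for secondary piRNAs (chr7:35469098-35537745, minus strand), had 957 and 1050 reads in control and 1601 and 1666 with lactate. Its CPM of 55.3 in both control libraries stood against 86.1 and 84.4 with lactate. The groups did not overlap, and the log2 fold change of 0.62 (SE 0.12, 95% interval 0.33 to 0.92) amounted to 1.54-fold, with an edgeR adjusted p of 0.0637.

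Tdrd1 is the docking protein of PIWIL2 in the cement between mitochondria (GRCm38 chr19:56826209-56870012, plus strand). It had 3 and 9 reads in control and 32 and 46 with lactate, or 0.03 and 0.10 FPKM against 0.33 and 0.53. Summed over a group, 12 control reads (exact Poisson 95% interval 6.20 to 21.0, counting error only) faced 78 lactate reads (61.7 to 97.3). Its fold was the largest of the members, a log2 fold change of 2.60 (SE 0.46, 95% interval 1.49 to 3.71) or 6.06-fold, and its edgeR adjusted p was 0.0559. DESeq2 called it, at an adjusted p of 0.0205. The estimate depended on the sparse control reads, at 3.49 without control replicate 2 and 2.06 without control replicate 1.

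Tdrd5 is required for chromatoid bodies in spermatids and for retrotransposon silencing in male germ cells (chr1:156255296-156303664, minus strand). It had 21 and 29 reads in control and 69 and 57 with lactate. Its groups did not overlap, and its log2 fold change was 1.26 (SE 0.28, 95% interval 0.58 to 1.93, edgeR adjusted p = 0.0747). A short stretch of 176 exon bases is shared with the antisense gene 4930518J20Rik, and whether counting used strand is not given in the sources used here, so reads of the 2 genes may be mixed. Tdrd6, a chromatoid body protein of spermatids (chr17:43615335-43630299, minus strand), was not detectable as different at this depth, with 2 and 0 reads in control and 1 and 2 with lactate. It fell under the filter on low counts, and no fold is given because both groups lie at or under 3 reads.

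Stk31 encodes a Tudor protein with a kinase-like domain (chr6:49395604-49469501, plus strand). It had 201 and 240 reads in control and 369 and 420 with lactate, 3.86 and 4.93 FPKM against 7.32 and 8.30. The groups did not overlap, and the log2 fold change was 0.76 (SE 0.16, 95% interval 0.37 to 1.15, edgeR adjusted p = 0.0694). Rnf17 (chr14:56402581-56525032, plus strand) had 3130 and 2641 reads in control and 4561 and 3737 with lactate. Although both lactate libraries were higher, the interval of its log2 fold change of 0.44 (SE 0.20) ran from −0.03 to 0.92, and the edgeR adjusted p was 0.244. With the replicate number as a block in the edgeR fit, the estimate was again 0.44 (SE 0.058, adjusted p = 5.36e-06). The numbers are not shown to pair the samples, so this smaller SE may not apply.

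Among the broadly expressed members, Tdrd3, which reads methylated arginines on histones and works with a topoisomerase (chr14:87416639-87545504, plus strand), had 343 and 320 reads in control and 400 and 361 with lactate. The FPKM values of 5.64 and 5.65 in control and 6.12 and 5.94 with lactate lay close together, and in CPM the groups overlapped. Its log2 fold change was 0.12 (SE 0.18, 95% interval −0.31 to 0.55, edgeR adjusted p = 0.746), so that a change of 2-fold in either direction lay outside the interval. Tdrd7, an RNA granule protein of lens and male germ cells (chr4:45965334-46034761, plus strand), had 106 and 165 reads in control and 82 and 113 with lactate. It was the only member with a negative log2 fold change, −0.55 (SE 0.26, 95% interval −1.18 to 0.08, edgeR adjusted p = 0.267). Both lactate libraries were below both control libraries in CPM, whereas in FPKM (1.66 and 2.67 against 0.93 and 1.73) they overlapped.

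Tdrkh, a mitochondrial Tudor protein with KH domains that helps trim piRNA precursors (chr3:94413273-94434668, plus strand), had 60 and 55 reads in control and 119 and 112 with lactate. Its groups did not overlap, and its log2 fold change was 0.92 (SE 0.22, 95% interval 0.39 to 1.46, edgeR adjusted p = 0.0853). This value lay inside the range of the tested germline-limited genes, 0.44 to 2.60, or 0.44 to 1.30 without Tdrd1. Tdrkh shares 2255 exon bases with Oaz3 on the other strand, an antizyme gene known from the testis, whose own log2 fold change was 0.20. Of the annotated Tdrkh transcripts, only the longest, of 5692 bases, reaches this shared stretch. The source of reads in that stretch is uncertain where strand was not used.

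**Figure D2:**
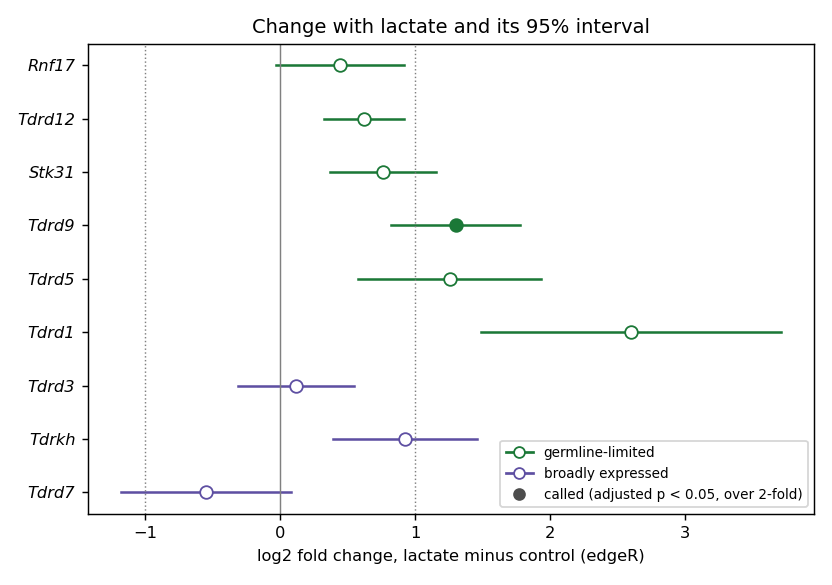
Log2 fold change of the 9 tested genes, lactate minus control, from edgeR, with 95% intervals as bars and a filled point for the called gene. The intervals of Rnf17, Tdrd3 and Tdrd7 cross 0, and Tdrd9 alone was called.

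Over the 6 germline-limited genes tested, 1 was called, 6 had a positive log2 fold change, 5 had an unadjusted p under 0.05 with a higher value, and the median log2 fold change was 1.01. Over the 3 broadly expressed genes, the counts were 0 called, 2 positive and 1 at that unadjusted p, with a median of 0.12. Of all genes tested, 11.7% had an unadjusted p under 0.05 with a higher value, and the median log2 fold change was 0.01. At an adjusted p under 0.10 without a limit on fold, 6 of the 9 tested members were higher (edgeR), as were 3.78% of all genes. The limit of 0.10 was not among the planned thresholds, so this count is no support for a change. In CPM, 6 of the 7 germline-limited genes and 1 of the 3 broadly expressed ones lay higher in both lactate libraries than in both control libraries, as did 27.0% of all genes tested, and Tdrd7 lay lower, as did 25.9%. Tdrd1 passed the filter on low counts through its lactate libraries alone, so its place in these counts and in the median of 1.01 is no support for a change. With at least 10 counts in every library, which leaves Tdrd1 out, the median over the 5 germline-limited genes tested was 0.77. No test of the difference between the 2 sets was made, and with 2 libraries a group an exact two-sided permutation test of any single value could not go below p = 0.333.

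The mitochondrial share of the counts followed the replicate number and not the treatment, at 5.48% and 5.72% in the libraries numbered 1 and 2.43% and 2.82% in those numbered 2. The differences were therefore also taken between libraries of the same number. On the log2 CPM scale, lactate minus control was 1.18 and 1.37 for Tdrd9, 2.70 and 2.07 for Tdrd1, 1.53 and 0.87 for Tdrd5, 0.64 and 0.61 for Tdrd12, 0.77 and 0.75 for Stk31 and 0.44 in both for Rnf17. For Tdrkh the differences were 0.86 and 0.94, for Tdrd3 0.12 in both, and for Tdrd7 −0.47 and −0.59. The sign was the same in both comparisons for each of these 9 genes. For the 7 that lay higher in both lactate libraries, and for Tdrd7, any pairing of the libraries gives the same sign. The agreement therefore adds nothing to that separation for them, and only Tdrd3 could have differed.

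**Figure D3:**
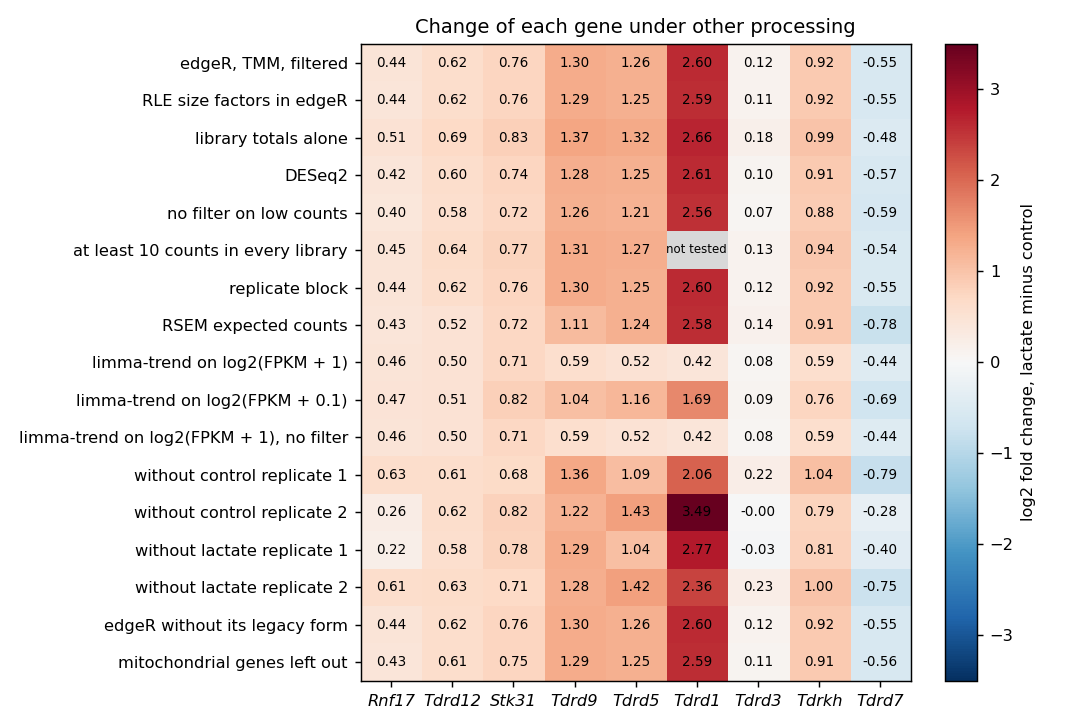
Log2 fold change of each gene (columns) under each way of processing (rows), coloured by lactate minus control. Tdrd9 ranges from 0.59 to 1.37 and stays positive in every row, while Tdrd3 falls to −0.03 without lactate replicate 1.

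RSEM, which divides reads among transcripts, gave the mean transcript length that the assigned reads stood for. For Tdrd12 this length was 1742 to 1888 bases, below the longest annotated coding transcript of 3651 bases, and for Rnf17 it was 3019 to 3476 of 5264. That of Tdrkh was 1504 to 1747 of 5692. By contrast, Tdrd9 stood at 4492 to 4809 bases, at or near its longest coding transcript of 4809, and Tdrd1 at 4887 to 4914 of 5187. Shorter values for Tdrd12 mean that part of its reads were given to shorter annotated transcripts, 1 of which is 1620 bases long with 12 exons against 30 in the longest. The lengths of Tdrd5 were 3330 to 3462 of 3759, those of Stk31 2368 to 2885 of 3237, those of Tdrd7 3253 to 3716 of 3716 and those of Tdrd3 3210 to 3868 of 5280. Reads of Tdrd9 assigned by RSEM were 62.7% to 74.6% of its raw counts, and with these expected counts its log2 fold change was 1.11 and it was not called (edgeR adjusted p = 0.0770).

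**Figure D4:**
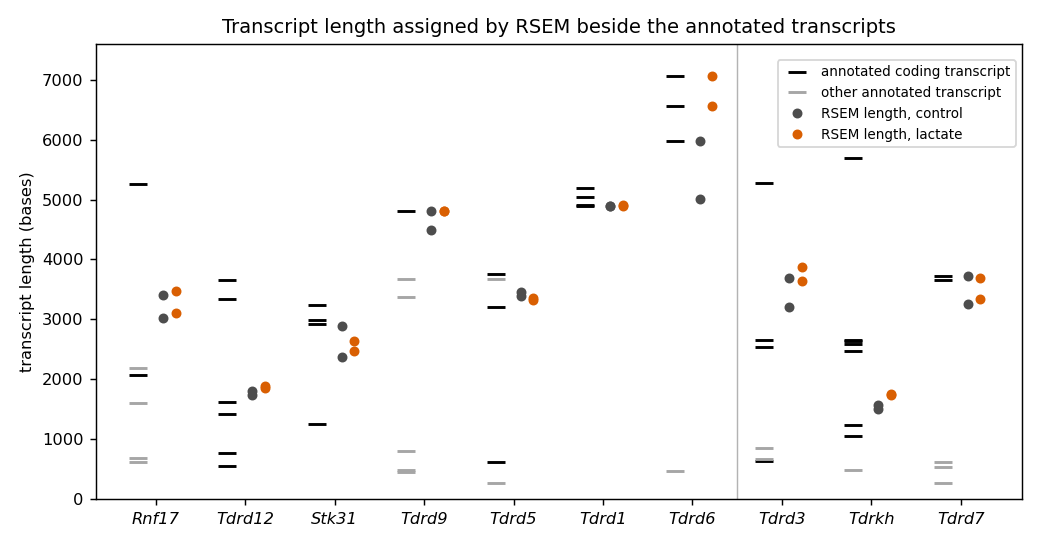
Transcript length in bases for each gene, with dashes for annotated transcripts (black for coding) and points for the mean length that RSEM gave each library. Tdrd12 points lie at 1742 to 1888 bases, well below its longest coding transcript of 3651, while Tdrd9 points lie at 4492 to 4809.

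The genes beside the members were also compared, by GRCm38 annotation. Among the 20 nearest tested neighbours, 0 were called by edgeR, 4 had an unadjusted p under 0.05 and 1 was called by DESeq2. Their median log2 fold change was 0.14, and 11 of 20 were higher. Of all genes tested, 23.1% had an unadjusted p under 0.05 in either direction and 51.0% were higher, so the neighbours' counts by these measures lay near the background. Calls by edgeR covered 0.900% of all genes tested, and DESeq2 called 1.12% of its tested genes as higher. The highest was Gm10873, 11.0 kb from Rnf17, with a log2 fold change of 2.18 (SE 0.36, edgeR adjusted p = 0.0526), which was the one DESeq2 called. The next was Stra6l beside Tdrd7, at 0.92, although Tdrd7 itself had a negative value.

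**Figure D5:**
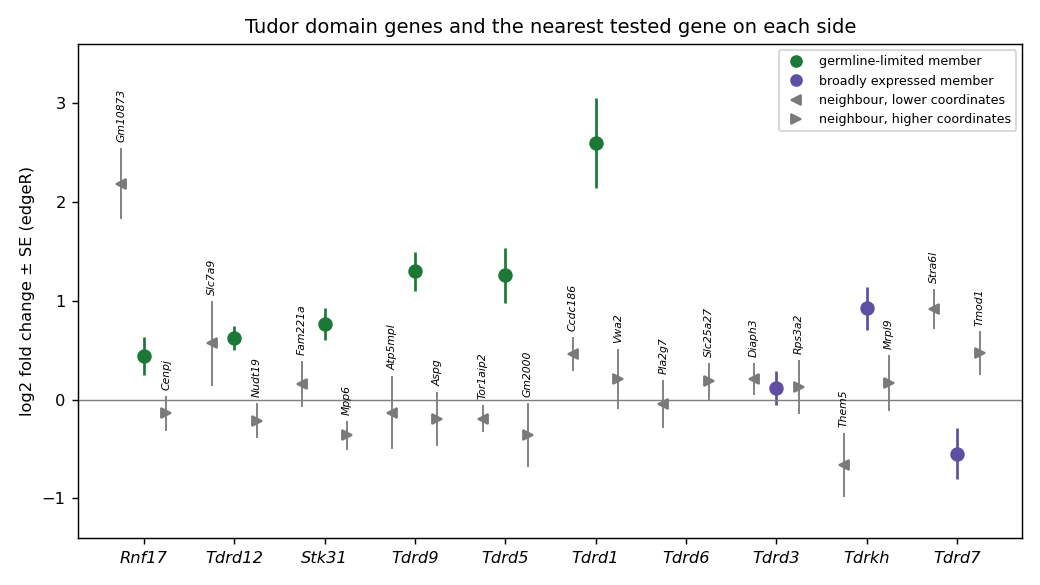
Log2 fold change with its SE for each gene (circles) and the nearest tested gene on either side (triangles), from edgeR. The neighbours range from −0.66 to 2.18, and the highest lies beside Rnf17.

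Other genes of the piRNA pathway were described in the same way. Of 16 PIWI proteins and their partners, 14 were tested, 11 were higher, 9 had an unadjusted p under 0.05 with a higher value and 1 was called, with a median log2 fold change of 0.62. Among all genes tested, 51.0% were higher, 11.7% had such a p with a higher value and 0.552% were called as higher. The called partner was Fkbp6, a co-chaperone that serves piRNA loading in the testis, with 408 and 530 reads in control and 992 and 1041 with lactate (log2 fold change 1.04, SE 0.15, edgeR adjusted p = 0.0467). The docking partners of Tdrd1 and Tdrd9 are named here after their values were seen. Piwil2 had a log2 fold change of 0.65 (edgeR adjusted p = 0.0917) and Piwil4 one of 0.30 (0.539).

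Other Tudor genes, most of which serve chromatin or splicing, were described beside them. Of 21 tested, 0 were called by edgeR and by DESeq2, 12 were higher and 9 lower, 3 had an unadjusted p under 0.05 with a higher value and 2 with a lower one, and the median log2 fold change was 0.06. The most abundant by count were Uhrf1, a maintenance factor of DNA methylation, at −0.50, Mtf2, a Polycomb subunit, at 0.18, Setdb1, a histone methyltransferase, at −0.30, and Akap1, a mitochondrial anchor, at −0.18. Of 15 genes of the complexes that hold germline genes silent in ESCs, 0 were called by edgeR and by DESeq2, with 2 at an unadjusted p under 0.05 with a higher value and 3 with a lower one, and the median was −0.03. Of all genes tested, 11.7% had such a p with a higher value and 11.4% with a lower one, and at lists of this size the counts of both groups lay near these shares. The 4 with the most reads were Dnmt1 at −0.46, Mga at −0.21, Rybp at 0.41 and Tfdp1 at 0.04. Max, which binds the E-box with MGA and is named after its value was seen, had a log2 fold change of −0.51 (SE 0.18, edgeR adjusted p = 0.161).

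Retrotransposons, whose transcripts piRNAs target in germ cells, were measured as 13 families. By edgeR 0 were called and 2 had an unadjusted p under 0.05, MERVL-int at a log2 fold change of 0.94 (SE 0.15, adjusted p = 0.0535) and MT2_Mm at 0.73 (adjusted p = 0.0573), both of which are endogenous retrovirus sequences active in the cleavage embryo. The other 11 ranged from −0.49 for L1Md_A to 0.33. Of 932 families tested, 0% were called and 6.33% had an unadjusted p under 0.05. No small RNA was measured.

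Because these are bulk libraries, fewer cells of a type and less RNA per cell cannot be told apart. Marker lists gave the following values beside the changes above. The 12 feeder fibroblast markers were 6 higher and 6 lower, with summed CPM of 2805 and 2955 in control and 3727 and 3314 with lactate, most of it Fn1, and none was at 0 in all libraries. Without Fn1, left out after its value was seen, the other 11 summed to 416 and 607 CPM in control and 406 and 467 with lactate, so the groups overlapped and the higher sum came from Fn1. Of 6 primitive endoderm markers 4 were tested and all 4 were higher, with summed CPM of 8.33 and 7.33 against 14.8 and 12.0. Pdgfra, which is also on the feeder list, gave 3.12 and 3.21 of these CPM in control and 7.26 and 5.37 with lactate. The 2 lists are therefore not separate. The 8 pluripotency markers summed to 4900 and 4904 CPM in control and 5442 and 5372 with lactate, at a median log2 fold change of 0.23. Of 8 germ cell markers 7 were higher and 2 were called, Dmrt1 (1.98) and Taf7l (1.81). For comparison with these marker lists, 51.0% of all genes tested were higher and 0.552% were called as higher. The part of these cell types in the changes of the Tudor genes was not tested.

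The 5 genes outside the lists whose profile over the 4 libraries lay nearest to the median profile of the 6 tested germline-limited members were Gm10046, Zbtb2, Zc3h8, Slc7a2 and Ttc21b. Nearness was the root mean square difference of log2 CPM values, after subtracting the control mean, and it ran from 0.0254 for Gm10046 to 0.0389 for Ttc21b. Their log2 fold changes lay between 0.94 and 1.19, and none of the 5 was called by edgeR. Among the members themselves this distance ran from 0.15 for Stk31 to 1.09 for Tdrd1, which also entered the median profile.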

How the data were processed

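Total RNA libraries of AB2.2 ESCs were made with a TruSeq kit (2 control, 2 lactate). Per the labels and the study's methods, the authors trimmed reads with cutadapt 1.16, mapped them to mm10 with STAR and counted reads in exons of the GENCODE annotation. The authors deposited whole-number raw counts per gene and per transposable element family, with 18067562 to 19077885 gene counts per library. RSEM gave the deposited expected counts, TPM and FPKM, which are normalised to transcript length and library depth. The depth gave 1 CPM per 17.3 to 19.7 reads. The authors' software version for RSEM is not given in the sources used here. TPM was used only to check the order of levels.

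Counts were tested with edgeR 4.0.16 in R 4.3.3 (quasi-likelihood F test, TMM, filterByExpr) over all genes, with Benjamini-Hochberg adjustment, and DESeq2 1.42.0 and limma 3.58.1 served as alternatives. SE was the log2 fold change over the square root of F. RSEM expected counts were rounded to whole numbers. The CPM printed per library divide by TMM-adjusted library size. Gene positions came from another GENCODE release on the same build (GRCm38), in which all 10 members had the same gene version. Replicates differed beyond counting noise, with a chi-square divided by its degrees of freedom of 22.3 in control and 21.6 in lactate. Members and lists were chosen with earlier results of these data known. All 10 members are named, and from each other list the called genes or, where none was called, up to 4 with the largest mean count. Protein sequences were not used here.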

Additional observations from a re-analysis of the deposited data

How the results depend on the processing

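Tdrd9, Tdrd1, Tdrd5, Tdrd12, Stk31, Rnf17 and Tdrkh kept a positive log2 fold change and Tdrd7 a negative one under every alternative that could test them. Tdrd3 reversed without control replicate 2 (−0.000496) and without lactate replicate 1 (−0.031), within a range of −0.031 to 0.23 over the libraries left out. With 1 library left in a group, that library was assumed to vary like the other group. Adjusted p values for Tdrd9 ran from 1.60e-06 to 0.311 and for Tdrd1 from 1.29e-05 to 0.306. The cause of these shifts was not tested, except that Tdrd6 enters the germline-limited set with DESeq2 and without a filter, and Tdrd1 leaves it with a minimum of 10 counts.

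The members called numbered 1, Tdrd9, among 168 genes called, 103 of them higher. They numbered 2 (Tdrd1 and Tdrd9) with DESeq2 among 358 genes (190 higher), 3 (Tdrd1, Tdrd5 and Tdrd9) without a filter among 807 (482 higher), 0 with at least 10 counts, 0 with RSEM expected counts among 44 (27 higher), and 0 members and 0 genes with limma, where 7 members and 2914 to 3419 genes had an unadjusted p under 0.05. All members called were germline-limited in these fits. With a replicate block, 3 germline-limited members (Tdrd1, Tdrd5 and Tdrd9) and 1156 genes (761 higher, 4.08% of those tested) were called. Under 2-fold, Tdrd12 (2.19e-07), Rnf17 (5.36e-06), Stk31 (1.11e-05), Tdrkh (0.000228) and Tdrd7 (0.00606, lower) also had an edgeR adjusted p under 0.05 there. Tdrd3 did not (0.362). In that fit 9547 of 18661 genes had an unadjusted p under 0.05. Same-numbered libraries correlated at r = 0.56 in deviation from their group means, but with 2 pairs the numbers are not shown to pair the samples. Leaving out 1 library gave 0 to 4 members, 0 to 3 germline-limited and 0 to 1 broadly expressed, 84 to 869 genes, and 45 to 502 higher genes. Control replicate 1 left out gave 0 members, control replicate 2 gave Tdrd1, lactate replicate 1 gave Tdrd1 and Tdrd9, and lactate replicate 2 gave Tdrd1, Tdrd5, Tdrd9 and Tdrkh.

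The germline-limited median of 1.01 was 1.07 with library totals, 0.74 with DESeq2, 0.72 without a filter, 0.77 with at least 10 counts, 0.91 with RSEM counts, 0.51 with limma on log2(FPKM + 1), 0.93 with a pseudocount of 0.1 and 0.50 without a filter, and 0.89 to 1.02 with a library left out. The broadly expressed median of 0.12 ran from −0.031 to 0.23 with a library left out, and was −0.000496 without control replicate 2. The median of the other Tudor genes, 0.06, was 0.16 in each limma fit and −0.079 to 0.17 with a library left out, negative without control replicate 2 and without lactate replicate 1. The piRNA partners lost their call (0) without a filter, with RSEM counts and with limma, and had 0 to 1 with a library left out. Their median of 0.62 was 0.68 with totals, 0.56 with DESeq2, 0.53 without a filter and 0.42, 0.67 and 0.35 with limma. The repressor median of −0.03 reversed to 0.041 with totals, 0.018 with RSEM counts and 0.088, 0.10 and 0.088 with limma, and ran from −0.088 to 0.0091 with a library left out. Retrotransposon families called numbered 0 to 1, the 1 without lactate replicate 1. Dropping mitochondrial genes or the legacy form of edgeR, both chosen after seeing the data, left the 1 called member as Tdrd9. Log2(FPKM + pseudocount) understates the change of low genes, and Tdrd6, with 0 to 2 reads a library, could not be judged at this depth.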
